A study of Rattus norvegicus with 30 samples.

Results

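The genes described here are 9 interferon-stimulated genes, Usp18, Isg15, Irf7, Mx2, Rsad2, Oas1a, Mx1, Stat2 and Irf1, out of 14217 genes that the platform's probe-gene table names by a single symbol. They were found as the probe sets whose only gene symbol is that of a listed gene, which gave 11 probe sets, and where a gene had more than 1 the brightest over all arrays stands for it. All 9 genes were on the array and all 9 had a probe set above the filter on dim probe sets, so none was dropped. The question taken up is how far these genes moved with time in culture and how far with clofibrate.

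The cells were primary hepatocytes of male Sprague Dawley rats, bought frozen, thawed, plated on collagen, overlaid with Matrigel and dosed on day 3 of culture. The cultures were exposed to 1000 uM clofibrate, to 60 uM clofibrate, or to DMSO alone (labelled 1%) as the solvent control, and RNA was taken at 48 h or 24 h after dosing. Clofibrate is a lipid-lowering fibrate and a ligand of PPAR-alpha, a nuclear receptor of lipid metabolism. Each of the 6 groups held 5 separately cultured wells with 1 Affymetrix expression array per well, 30 arrays in all, and since the labels do not name separate animals the p-values measure the spread between wells.

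Interferons are secreted proteins that cells make on sensing viral nucleic acid. Type I interferons bind the receptor chains IFNAR1 and IFNAR2, the kinases JAK1 and TYK2 are then activated, and a complex that holds STAT2 and IRF9 binds the interferon-stimulated response element (ISRE) of target genes. Type II interferon acts on the gamma-activated site (GAS). Hepatocytes carry both receptor systems and express many of the target genes at a low level without added interferon.

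The values are MAS5 signals, the brightness of a probe set on a linear scale that the authors had scaled per array, and changes are differences in mean log2 signal from 1 limma fit of all 30 arrays and 18625 probe sets. A change was called at a Benjamini-Hochberg adjusted p under 0.05. Signals of different genes come from different probes and were not compared with each other. Correlations between arrays of a group were 0.964 at the lowest, and replicate 1 of DMSO at 48 h stood apart with a residual SD of 0.336, the highest of the 30. Fewer cells of a type and less RNA per cell cannot be told apart in these cultures.

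The promoters are shown for the genes in which a motif was found, because the 2 motifs name the signalling routes above. Of the 9 genes, 6 had a window in RefSeq's promoter table (GRCr8), which runs from 250 bases before to 50 bases after the gene start, and Usp18, Mx2 and Isg15 had none. The ISRE was searched as GAAA, any 2 bases, GAAA on both strands, and the GAS as TTC, any 3 bases, GAA, which reads the same on both strands. An ISRE match was present in 3 of the 6 windows, against 3.92% of the 33469 windows of the table, and a GAS match in 2 of the 6, against 8.87%. A match is a run of letters and not a shown binding site. The windows of Irf7, Rsad2 and Oas1a follow with the ISRE match in capitals, and that of Irf1 with the GAS match in capitals, each 5' to 3' along the gene. They lie at chr1:205799974-205800273 (reverse strand), chr6:48788071-48788370 (reverse strand), chr12:41330216-41330515 (forward strand) and chr10:38417685-38417984 (forward strand).
Irf7: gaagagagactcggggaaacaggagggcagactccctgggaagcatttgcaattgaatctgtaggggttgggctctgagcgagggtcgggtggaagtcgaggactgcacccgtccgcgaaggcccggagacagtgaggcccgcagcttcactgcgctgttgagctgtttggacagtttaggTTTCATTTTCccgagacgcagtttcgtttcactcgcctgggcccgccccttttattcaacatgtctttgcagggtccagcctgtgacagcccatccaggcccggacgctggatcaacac
Rsad2: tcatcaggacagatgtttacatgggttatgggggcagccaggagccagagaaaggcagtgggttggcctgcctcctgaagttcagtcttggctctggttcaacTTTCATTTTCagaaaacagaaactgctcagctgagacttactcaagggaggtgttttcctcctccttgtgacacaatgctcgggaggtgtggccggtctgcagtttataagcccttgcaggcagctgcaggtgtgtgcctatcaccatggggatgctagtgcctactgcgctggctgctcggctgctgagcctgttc
Oas1a: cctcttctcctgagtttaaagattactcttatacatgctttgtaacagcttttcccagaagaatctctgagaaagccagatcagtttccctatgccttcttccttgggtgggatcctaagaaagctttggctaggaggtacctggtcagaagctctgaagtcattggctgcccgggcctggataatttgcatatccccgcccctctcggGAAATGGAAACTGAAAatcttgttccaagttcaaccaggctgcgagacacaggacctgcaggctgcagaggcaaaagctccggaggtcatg
Irf1: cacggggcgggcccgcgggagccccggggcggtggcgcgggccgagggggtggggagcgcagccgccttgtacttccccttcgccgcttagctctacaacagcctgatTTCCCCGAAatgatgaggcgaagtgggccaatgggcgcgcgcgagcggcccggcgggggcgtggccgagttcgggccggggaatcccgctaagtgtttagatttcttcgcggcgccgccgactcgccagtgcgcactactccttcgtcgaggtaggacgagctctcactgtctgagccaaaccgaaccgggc
The match starts 69 bases before the gene start in Irf7 and 147 bases before it in Rsad2, on the opposite strand in both, with the same letters TTTCATTTTC. Oas1a has 2 overlapping matches that start 41 and 35 bases before the start, and a GAS match (TTCCCAGAA, not in capitals) 199 bases before it. The match of Irf1 (TTCCCCGAA) starts 142 bases before the gene start. The windows of Mx1 and Stat2 held neither run of letters.

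Usp18, Isg15 and Irf7 were lower at 48 h than at 24 h with DMSO alone, with 60 uM and with 1000 uM clofibrate, and no change against DMSO was called for them at either dose or time. Their falls were between 1.45-fold and 2.16-fold. Among all probe sets, 1.33% were called lower with time at all 3 exposures. With time, 4 of the 9 genes were called lower in DMSO (3.07% of all probe sets were), 5 in 60 uM (3.95%) and 4 in 1000 uM clofibrate (11%), and none was called higher. The median change of the 9 genes was -0.25 in DMSO, -0.49 in 60 uM and -0.29 in 1000 uM on the log2 scale, beside -0.01, 0.01 and -0.01 for all probe sets.

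Usp18 encodes the protease that removes ISG15 from proteins and also holds down signalling at the type I receptor. In DMSO its signal was 2227, 2895, 3341, 2545 and 2686 at 48 h, against 4037, 5708, 4343, 5938 and 4198 at 24 h. In 60 uM it was 2429, 2462, 2532, 2067 and 2397 at 48 h, against 4652, 4621, 5133, 3709 and 3721 at 24 h. The 48 h and 24 h arrays did not overlap at either exposure, as in 2.61% of all probe sets in DMSO and 3.65% in 60 uM that were lower without overlap. In 1000 uM it was 4119, 2324, 2817, 1841 and 2182 at 48 h, against 3482, 4110, 3610, 4692 and 3944 at 24 h, and there only replicate 1 at 48 h reached the 24 h arrays. The log2 changes with time were -0.82 ± 0.15 (SE) in DMSO (limma adjusted p = 0.000296), -0.87 ± 0.15 in 60 uM (0.000109) and -0.63 ± 0.15 in 1000 uM (0.00178).

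Isg15 is the ubiquitin-like protein that is attached to other proteins in interferon-treated cells. In DMSO its signal was 1817, 2144, 2596, 2313 and 2480 at 48 h, against 2904, 4883, 4400, 4251 and 3661 at 24 h. In 60 uM it was 2120, 1797, 1888, 1290 and 1660 at 48 h, against 4812, 3785, 4785, 3156 and 2640 at 24 h. Each 48 h array lay below each 24 h array at these exposures. In 1000 uM it was 3278, 1985, 1899, 1853 and 2135 at 48 h, against 3069, 3647, 3726, 4066 and 3416 at 24 h, where replicate 1 at 48 h alone overlapped. The log2 changes were -0.81 ± 0.16 in DMSO (limma adjusted p = 0.000951), -1.11 ± 0.16 in 60 uM (9.87e-06) and -0.71 ± 0.16 in 1000 uM (0.00119).

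Irf7 is the transcription factor that drives type I interferon genes once a first wave of interferon has induced it. In DMSO its signal was 2268, 2304, 2972, 2337 and 2534 at 48 h, against 3094, 4173, 3216, 4402 and 3222 at 24 h. In 60 uM it was 2464, 1649, 2224, 2115 and 1752 at 48 h, against 3420, 3718, 3871, 3143 and 3552 at 24 h. No array overlapped at these exposures. In 1000 uM it was 3088, 2161, 2368, 2114 and 1834 at 48 h, against 2866, 3392, 3296, 3652 and 3836 at 24 h, with replicate 1 at 48 h again among the 24 h values. The log2 changes were -0.54 ± 0.12 in DMSO (limma adjusted p = 0.00382), -0.81 ± 0.12 in 60 uM (1.61e-05) and -0.57 ± 0.12 in 1000 uM (0.00054). Without replicate 1 of 1000 uM at 48 h the changes in 1000 uM were -0.80 for Usp18, -0.86 for Isg15 and -0.68 for Irf7.

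**Figure D1:**
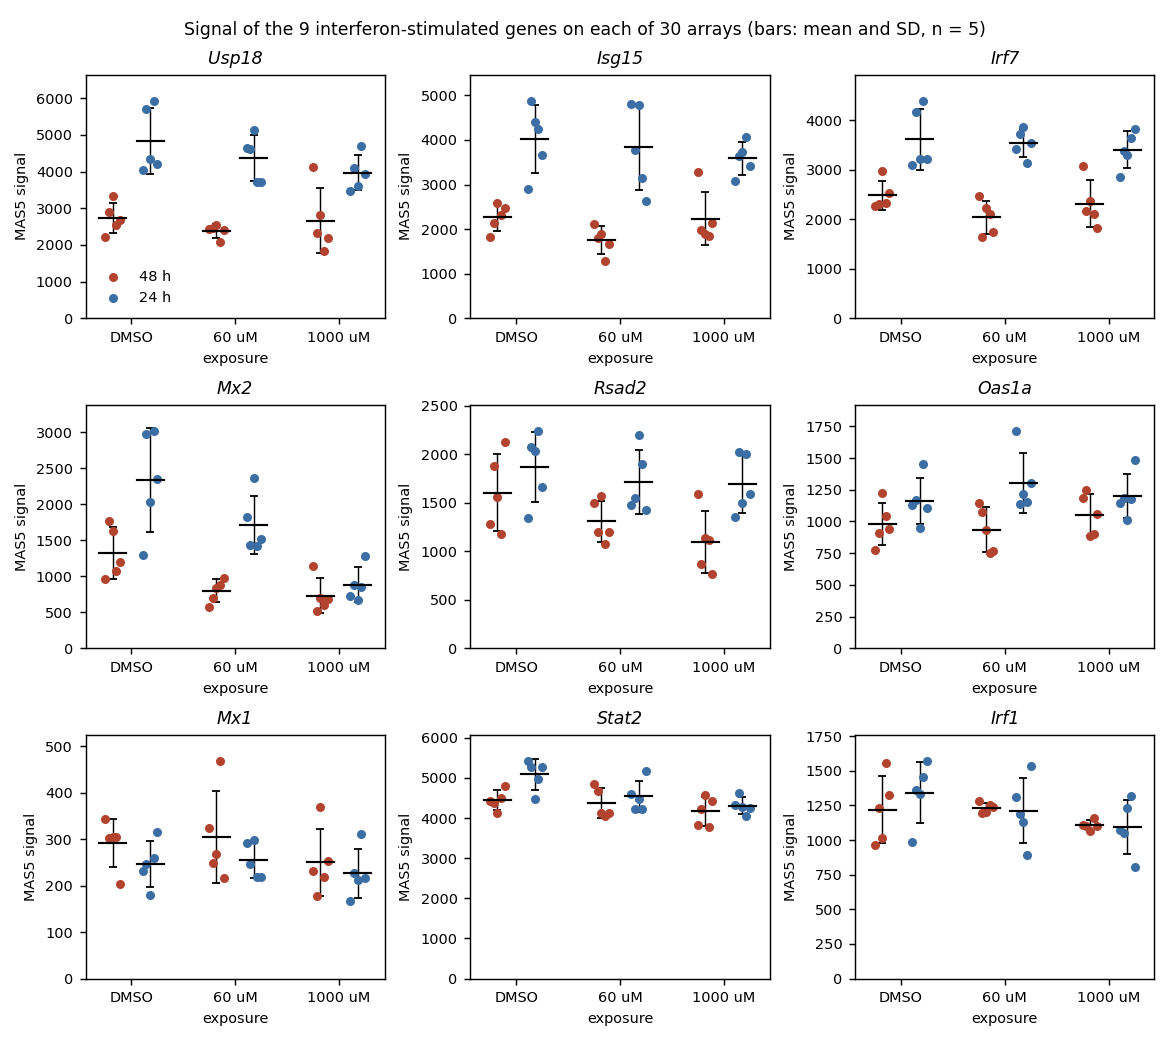
MAS5 signal (linear axis from 0) of each gene on each array, by exposure, with 48 h in red on the left of each pair and 24 h in blue on the right. Bars give the mean and SD of 5 wells. For Usp18, Isg15 and Irf7 the 48 h points lie below the 24 h points at each exposure apart from replicate 1 of 1000 uM, and for Mx2 the 1000 uM points lie low at both times.

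Mx2, one of the interferon-induced Mx GTPases that block virus replication, fell with clofibrate as well as with time. At 24 h its signal was 728, 883, 673, 848 and 1287 in 1000 uM, against 1296, 2979, 2031, 3022 and 2359 in DMSO, with no overlap between the groups (12.7% of all probe sets were lower without overlap there). At 48 h it was 1148, 519, 697, 601 and 689 in 1000 uM, against 958, 1774, 1629, 1076 and 1193 in DMSO, with replicate 1 of 1000 uM inside the DMSO range. The log2 change with 1000 uM was -1.38 ± 0.22 at 24 h (limma adjusted p = 8.08e-06), a 2.6-fold fall, and -0.87 ± 0.22 at 48 h (adjusted p = 0.00193).

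With 60 uM, Mx2 had signals of 1819, 1430, 2364, 1426 and 1519 at 24 h and 579, 694, 845, 883 and 982 at 48 h. At 24 h these overlapped the DMSO arrays, and the change of -0.41 ± 0.22 against DMSO was not called (limma adjusted p = 0.354, 95% interval -0.87 to 0.04). At 48 h the change of -0.72 ± 0.22 was called (adjusted p = 0.0357), and the call was lost without replicate 1 or 2 of 60 uM or replicate 2 or 3 of DMSO at 48 h, with adjusted p between 0.0832 and 0.119. The 2 doses differed at 24 h, by -0.96 ± 0.22 for 1000 uM against 60 uM (adjusted p = 0.00166) and without overlap, as 8.23% of all probe sets were. At 48 h they were not shown to differ (-0.15 ± 0.22, 95% interval -0.61 to 0.30, adjusted p = 0.684).

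With time, Mx2 fell in DMSO, with a log2 change of -0.79 ± 0.22 (limma adjusted p = 0.0236), and in 60 uM, with -1.10 ± 0.22 (0.00103). In 1000 uM the change with time was -0.29 ± 0.22 and was not called (0.415). Leaving out replicate 1 or 4 of DMSO at 48 h, or replicate 2 or 4 of DMSO at 24 h, ended the call in DMSO. A second, dim Mx2 probe set with 110 to 330 signal units per array showed none of these changes: it changed by -0.07 with 1000 uM at 24 h and by -0.26 at 48 h, with adjusted p of 0.931 and 0.575. The changes reported for Mx2 are those of its brighter probe set alone.

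Rsad2 encodes viperin, an enzyme that makes a chain-terminating nucleotide against viral polymerases. At 48 h its signal was 1587, 866, 1141, 1114 and 771 in 1000 uM, against 1281, 1883, 1565, 1178 and 2126 in DMSO, and the groups overlapped. It fell by 0.56 ± 0.18 with 1000 uM at 48 h (limma adjusted p = 0.0121), a call lost without replicate 5 of either group (0.0541 and 0.0519). At 24 h the signals were 1357, 2028, 1502, 2006 and 1594 in 1000 uM, against 1343, 2075, 2034, 2243 and 1661 in DMSO, and the change of -0.14 ± 0.18 was not called (0.643). With time it fell by 0.66 ± 0.18 in 1000 uM (0.00655), while in DMSO the change was -0.23 ± 0.18 (0.551) and in 60 uM -0.38 ± 0.18 (0.215).

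Oas1a, an oligoadenylate synthetase that switches on RNA decay when it meets double-stranded RNA, was called in 1 comparison. In 60 uM its signal was 1147, 1073, 932, 750.1 and 769.97 at 48 h, against 1715, 1139, 1214, 1157 and 1302 at 24 h, a log2 change of -0.49 ± 0.14 (limma adjusted p = 0.0262) in which the 2 groups overlapped by 1 array each. The call was lost without replicate 1 of 60 uM at 24 h or replicate 4 or 5 of 60 uM at 48 h. In DMSO the change was -0.25 ± 0.14 and in 1000 uM -0.19 ± 0.14, neither called.

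Mx1, the other Mx GTPase, and Irf1, the factor induced by type II interferon through the GAS, were called in none of the 11 comparisons. The Mx1 probe set lay just above the filter, a signal of 255, with group means of 226 to 305, and its 95% intervals reached from -0.73 to 0.73 over the comparisons of time and of drug against DMSO. Irf1 ranged from 804 to 1571 over the 30 arrays. At 48 h its 5 arrays in 1000 uM (1063 to 1161) all lay below those in 60 uM (1193 to 1279), but the change of -0.16 ± 0.14 was not called (limma adjusted p = 0.463). Lower values without overlap were found in 10.6% of probe sets in that comparison. Without replicate 1 of DMSO at 24 h, Irf1 was called lower with 1000 uM at 24 h (-0.40, adjusted p = 0.0235).

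Stat2, the partner of IRF9 in the ISRE-binding complex, moved little. At 24 h its signal was 4328, 4632, 4266, 4057 and 4257 in 1000 uM, against 5421, 5276, 4485, 4966 and 5278 in DMSO, with replicate 2 of 1000 uM above replicate 3 of DMSO. The change of -0.24 ± 0.07 was called (limma adjusted p = 0.00623). It was not called after median centring of the arrays (-0.17, adjusted p = 0.0655), after scaling to the poly-A spike-ins (-0.0035, adjusted p = 0.985) or on the second Stat2 probe set (-0.22, adjusted p = 0.495). At 48 h the change was -0.09 ± 0.07 (0.292).

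Against DMSO, the count of genes called lower was 2 of 9 with 1000 uM at 24 h (Mx2 and Stat2), where 17.4% of all probe sets were lower, and 2 of 9 at 48 h (Mx2 and Rsad2), where 22.7% were. With 60 uM it was 0 of 9 at 24 h, where 3.14% of all probe sets were called lower, and 1 of 9 at 48 h (Mx2), against 4.43%. Between the doses, 1 of 9 was called lower in 1000 uM at 24 h (Mx2), against 10.4%, and 0 of 9 at 48 h, against 15.3%. The counts called lower with 1000 uM against DMSO were near the share of all probe sets called lower. An unadjusted limma p under 0.05, in either direction, was reached by 1 of 9 with 60 uM at 24 h and by 3 of 9 at 48 h. With 1000 uM against DMSO it was reached by 3 of 9 at 24 h and by 2 of 9 at 48 h. Between the doses it was reached by 1 of 9 at 24 h and by 1 of 9 at 48 h. The latter was Isg15, which was higher in 1000 uM (mean log2 11.09, against 10.76 in 60 uM). No share of all probe sets stands beside these unadjusted counts.

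For the 3 genes that fell at each exposure, no change with drug was called, and the sizes of drug and time changes were not tested against each other. With 1000 uM against DMSO, Usp18 changed by -0.28 at 24 h (95% interval -0.58 to 0.02) and by -0.09 at 48 h (-0.39 to 0.21). Isg15 changed by -0.15 (-0.48 to 0.18) and by -0.05 (-0.38 to 0.28). Irf7 changed by -0.08 (-0.33 to 0.17) and by -0.12 (-0.36 to 0.13). The largest changes of these 3 with 60 uM were at 48 h, -0.38 for Isg15 (-0.71 to -0.05) and -0.29 for Irf7 (-0.54 to -0.04), with adjusted p of 0.158 and 0.15 in the limma fit.

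**Figure D2:**
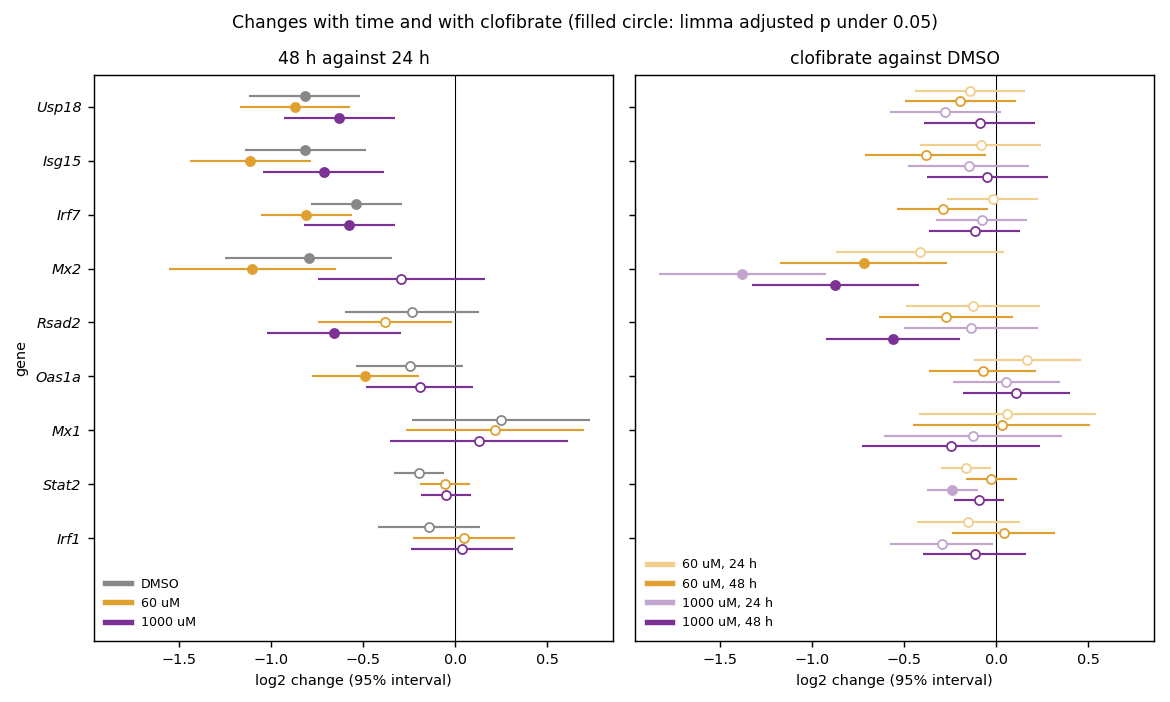
Log2 change of each gene with its 95% interval, 48 h against 24 h at each exposure on the left and clofibrate against DMSO on the right, on 1 shared axis. Filled circles passed an adjusted p under 0.05. Usp18, Isg15 and Irf7 are filled at all 3 exposures on the left and at none on the right, and Mx2 is filled on both sides.

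Whether the drug's effect itself differed between the times was tested as an interaction. None of the 9 genes was called for 60 uM, where 0.0859% of probe sets were, or for 1000 uM, where 8.29% were, and none had an unadjusted p under 0.05 in either by limma. For Mx2 with 1000 uM the difference of the 48 h and 24 h effects was 0.50 ± 0.31 (95% interval -0.14 to 1.14, limma adjusted p = 0.406). The change of Mx2 with time in 1000 uM is thus not shown to differ from that in DMSO. Set against 60 uM, it differed by 0.81 ± 0.31 (95% interval 0.17 to 1.45), which missed the threshold after adjustment over all probe sets (limma adjusted p = 0.189, unadjusted 0.0151), where 3.08% of probe sets were called. This contrast was added after the values were seen. For Usp18 the value was 0.19 (-0.24 to 0.61), for Isg15 0.10 (-0.36 to 0.56) and for Rsad2 -0.43 (-0.94 to 0.09).

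The sum of squares of log2 signal over the 30 arrays was divided into exposure, time, exposure by time and the spread between wells of a group. Time took 70.3% in Usp18, 70.7% in Isg15 and 70.7% in Irf7, while exposure took 3.25%, 3.34% and 2.86%. Over all probe sets above the filter the median share was 4.32% for time, 15.7% for exposure and 63.4% between wells. Mx2 had the opposite order, with 42.9% for exposure and 27% for time. In Rsad2 and Oas1a time took 30% and 32.3%, exposure 13.6% and 1.48%, and the spread between wells 51.2% and 60.6%. In Stat2 exposure took 26.8% and time 14.5%. Irf1 and Mx1 varied mainly between wells of a group, with 81% in each.

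**Figure D3:**
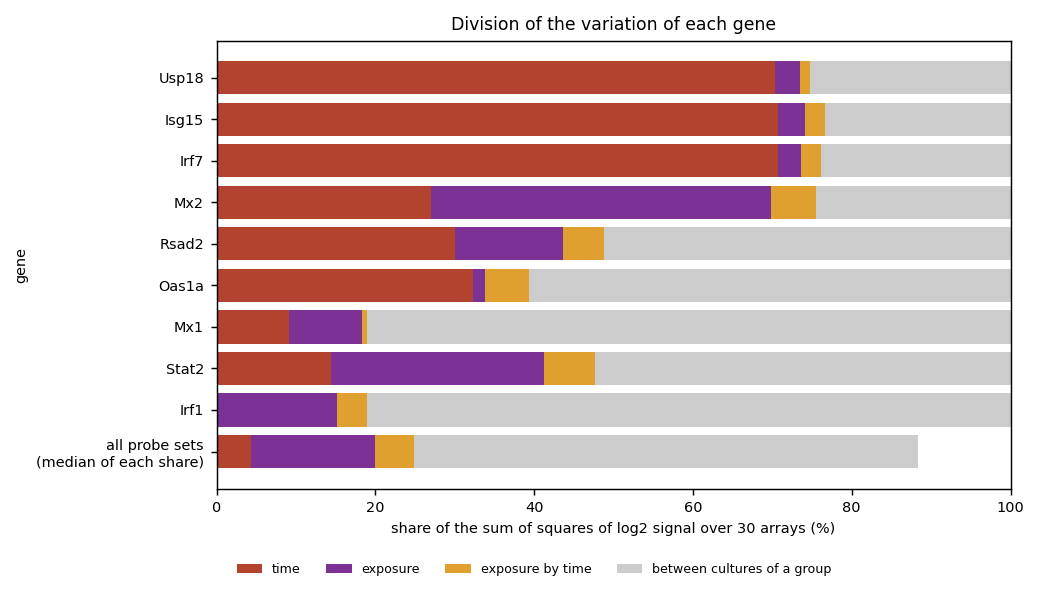
Share of the sum of squares of log2 signal over 30 arrays (percent) for time, exposure, exposure by time and the spread between wells of a group. The bottom bar gives the median of each share over all probe sets and need not reach 100. The bar for time is longest in Usp18, Isg15 and Irf7, and that for exposure in Mx2.

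Within groups, 5 of the genes went up and down together from well to well. After the group means were taken off, all 36 pairs of the 9 genes were correlated over the 30 arrays, with p by permuting arrays within groups 100000 times and adjusted over the 36 pairs. An adjusted p under 0.05 was reached by 10 pairs, which are the 10 pairs among Usp18, Isg15, Irf7, Mx2 and Rsad2 (Pearson's r 0.489 to 0.771). Pairs of genes outside the 9 were not tested, so no share of all pairs stands beside this count. By Spearman's rho 8 of the 10 kept an adjusted p under 0.05, and Mx2 with Irf7 (0.0577) and Mx2 with Isg15 (0.112) did not. For Usp18 and Isg15, r was 0.771 and Spearman's rho 0.755, with permutation p of 1e-05 (the smallest the permutations can give) and 4e-05, adjusted to 0.00036 and 0.00144. Without the 2 arrays farthest from the median in Usp18, r was 0.713.

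The pair Usp18 and Irf7 had an r of 0.733 and a rho of 0.705, with adjusted permutation p of 0.00198 and 0.0018, and an r of 0.681 without the 2 farthest arrays. Over the 10 pairs, r without the 2 farthest arrays was 0.281 to 0.713, so the weakest pair rests on few arrays. The other 26 pairs had r between -0.293 and 0.459 and none was called, and pairs with Stat2 had a median r of -0.13. The values of a well share its RNA, its labelling and the scaling of its array. A spread common to many genes of an array cannot be told apart here from one of these genes.

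Single wells made this visible. Replicate 1 of 1000 uM at 48 h was the highest of its group in all 5 of these genes, replicate 1 of DMSO at 24 h was the lowest of its group in all 5, and replicate 1 of DMSO at 48 h and replicate 1 of 1000 uM at 24 h were each the lowest in 4. In the same sense replicate 4 of DMSO at 24 h was the highest in 4 and replicate 3 of 60 uM at 24 h in 4. The titles carry serial numbers, and every replicate 1 array is of their first run through the 6 groups. The arrays of that run did not all go the same way, and its part in these ranks was not tested. Without replicate 1 of 1000 uM at 48 h, r over the 10 pairs was 0.389 to 0.708.

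**Figure D4:**
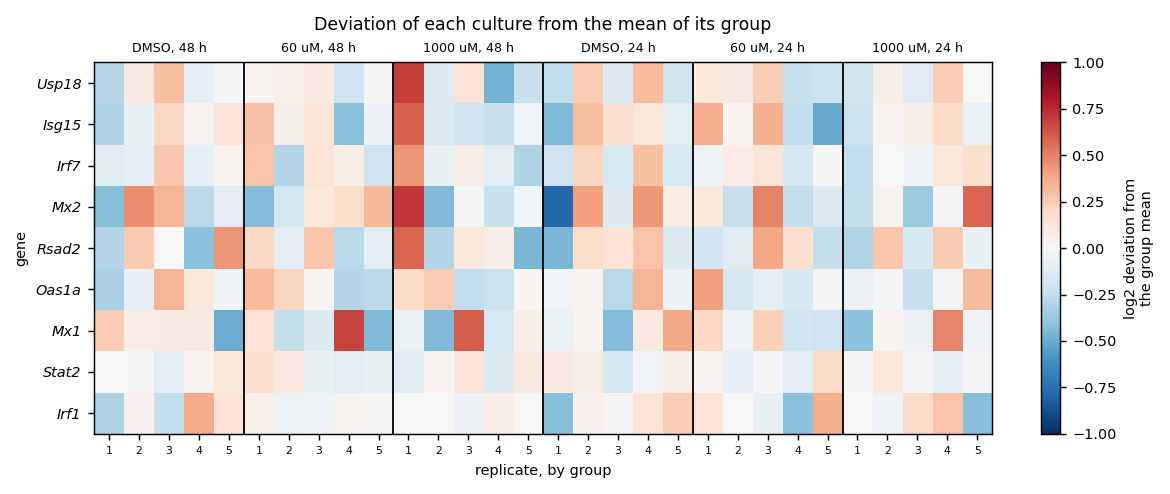
Log2 deviation of each array from its group mean (colour, red above and blue below), with genes down the page and the 5 replicates of each group across it. Replicate 1 of 1000 uM at 48 h is red and replicate 1 of DMSO at 24 h is blue in Usp18, Isg15, Irf7, Mx2 and Rsad2, while Stat2 stays pale throughout.

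The genes most like the mean of the 9 standardised signals were sought among 10505 other named genes. Over the 30 arrays as they are, the 5 closest by Pearson's r were Plg (0.85), H1f2 (0.848), Sdf4 (0.844), Cep15 (0.832) and Creld2 (0.83), of which Plg encodes plasminogen and H1f2 a linker histone. After the group means were taken off they were Pml (0.704), Cgrrf1 (0.682), Ifi44 (0.678), Rtp4 (0.657) and Eif2b4 (0.653). Pml, Ifi44 and Rtp4 are themselves known as interferon-induced genes. Rtp4 fell with time, with log2 changes of -0.66 ± 0.15 in DMSO (limma adjusted p = 0.00318), -0.81 ± 0.15 in 60 uM (0.000276) and -0.59 ± 0.15 in 1000 uM (0.00311), and Ifi44 changed by -0.35 ± 0.11 in DMSO, which was not called (0.051).

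The rest of the pathway was read from 11 lists of 147 genes besides the 9, of which 103 were on the array and 86 were tested. With time, 15 of the 86 were called lower and 3 higher in DMSO, which is 20.9% of them beside 6.94% of all probe sets. In 60 uM 18 were lower and 4 higher (25.6% beside 8.71%), and in 1000 uM 16 were lower and 7 higher (26.7% beside 20.9%). Without replicate 1 of DMSO at 48 h the 18 calls in DMSO were 10. The direction of these counts depended on the scaling: on the poly-A spike-ins 2 were lower and 6 higher in DMSO, 6 and 3 in 60 uM, and 6 and 6 in 1000 uM. At all 3 exposures 8 of the 86 were lower (9.3%, beside 1.33% of all probe sets): Bst2, Eif2ak2, Erap1, Ifitm1, Ifitm3, Irf9, Irgm2 and Parp9. On the poly-A spike-ins at most 2 of these 8 can have been lower in DMSO. In the main fit Erap1 and Ifitm1 were near the threshold in DMSO (limma adjusted p of 0.0481 and 0.0475).

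Ifitm3, a membrane protein that blocks virus entry, fell with time, with log2 changes of -0.78 ± 0.08 in DMSO, -1.03 ± 0.08 in 60 uM and -1.23 ± 0.08 in 1000 uM (limma adjusted p of 1.25e-08, 2.43e-11 and 1.01e-13). Bst2 (tetherin), which holds budding viruses at the cell surface, changed by -0.51, -0.79 and -0.72 (SE 0.09 each, all called), with a mean signal in DMSO of 16956 ± 1362 at 48 h, against 24352 ± 3781 at 24 h (SD, n = 5). Irf9, the DNA-binding member of the ISRE complex, changed by -0.34, -0.66 and -0.50 (SE 0.10 each, all called). Of the antiviral effectors 9 of 30 were lower and none higher with time in DMSO, where 3.07% of all probe sets were lower. On the poly-A spike-ins 2 of the 86 pathway genes besides the 9 were lower there. Of the ligands themselves, Ifnb1, Ifnk and Ifng had a probe set and all 3 lay under the filter, with Ifng under the background floor in all 6 groups, so no change in a ligand could be measured.

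Of the 5 receptor chains tested, 2 rose and none fell with time in DMSO, beside 3.88% and 3.07% of all probe sets. Ifngr2 rose with time in DMSO by 0.43 ± 0.06 (limma adjusted p = 4.7e-06) and Il10rb by 0.21 ± 0.06 (0.027). With 1000 uM against DMSO both were lower at 48 h, Ifngr2 by -0.27 ± 0.06 and Il10rb by -0.19 ± 0.06 (limma adjusted p of 0.000331 and 0.0121). Ifnar2 rose with 1000 uM by 0.38 ± 0.05 at 24 h and 0.37 ± 0.05 at 48 h (9.84e-08 and 1.12e-07). Of the chemokines, Cxcl16 rose with time in DMSO by 1.16 ± 0.09, with signals of 5980 ± 685 at 48 h, against 2681 ± 311 at 24 h (SD, n = 5). Cxcl9 and Cxcl11, attractants of T cells, fell with time in DMSO, with changes of -0.34 ± 0.07 and -0.48 ± 0.13.

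With 1000 uM against DMSO, 28 of the 86 pathway genes were lower and 6 higher at 24 h (39.5%, beside 28.9% of all probe sets), and 31 were lower and 12 higher at 48 h (50%, beside 37.9%). On the poly-A spike-ins the counts were 8 lower and 11 higher at 24 h, and 14 lower and 17 higher at 48 h, so the excess of lower genes was not kept. With 60 uM 4 were lower and 1 higher at 24 h (5.81%, beside 6.56%), and 9 were lower and 3 higher at 48 h (14%, beside 9.05%). Tap1, a peptide transporter of antigen presentation, fell, with log2 changes of -0.75 ± 0.13 at 24 h and -1.27 ± 0.13 at 48 h (limma adjusted p of 2.58e-05 and 9.51e-10). At these times Ifit2, an RNA-binding antiviral protein, changed by -0.60 ± 0.08 and -1.25 ± 0.08, the exonuclease Isg20 by -0.86 ± 0.10 and -0.85 ± 0.10, and the nucleotide kinase Cmpk2 by -0.84 ± 0.20 and -1.03 ± 0.20, all called.

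Irf2, a repressor at the same elements, was lower with 1000 uM, with changes of -0.76 ± 0.14 at 24 h and -0.83 ± 0.14 at 48 h, as was the GTPase Gbp7, with changes of -1.23 ± 0.21 and -0.91 ± 0.21. Cxcl16 changed by -1.15 ± 0.09 and -1.93 ± 0.09, the opposite of its change with time in DMSO. Others rose: the torsin ATPase Tor3a by 1.41 ± 0.15 and 1.87 ± 0.15, with signals at 48 h of 2190 ± 433 in 1000 uM, against 593 ± 57 in DMSO (SD, n = 5), and the GTPase Irgm2 by 0.66 ± 0.06 and 0.84 ± 0.06. Irgm2 is thereby a gene that rose with the drug and fell with time. The effect of 1000 uM differed between the times in 6 of the 86 (6.98%, beside 8.29% of all probe sets), among them Ifit2 (-0.65 ± 0.12, limma adjusted p = 0.000325) and Cxcl16 (-0.77 ± 0.12, 4.72e-05), both with the larger fall at 48 h.

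Markers of other cells that answer interferon were read beside these genes. Of 11 tested Kupffer cell and macrophage markers, 3 fell with time in DMSO, where 3.07% of all probe sets were lower. They were C1qa with a log2 change of -0.84 ± 0.19, C1qc of -0.58 ± 0.18 and Cd68 of -0.48 ± 0.12 (limma adjusted p of 0.00391, 0.0464 and 0.0094). The summed signal of the 13 markers on the array ranged from 25016 to 28879 in DMSO at 48 h, against 29786 to 31429 at 24 h, and from 23742 to 24852 in 1000 uM at 48 h, against 26333 to 28339 at 24 h. In 60 uM it ranged from 26541 to 29174 at 48 h, against 29879 to 31447 at 24 h. The defining marker Adgre1 was under the background floor in 5 of the 6 groups. The part of these cells in the falls with time was not tested.

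With 1000 uM against DMSO, marker genes moved in both directions. Klrb1a, a receptor of NK cells, fell by 1.79 ± 0.20 at 24 h and by 1.14 ± 0.20 at 48 h (limma adjusted p of 7.54e-09 and 1.71e-05). No other T, B and NK cell marker was called at either time. The summed signal of the 11 such markers on the array overlapped between 1000 uM and DMSO. It ranged from 1953 to 2529, against 2197 to 3349 in DMSO, at 24 h, and from 2138 to 2555, against 2400 to 2666, at 48 h. Of the 11 macrophage markers, Lyz2 was lower at both times (-0.59 ± 0.08 and -0.85 ± 0.08) and C1qb at 48 h (-1.86 ± 0.32), while Mrc1 was higher at both (0.31 ± 0.12 and 0.46 ± 0.12) and Tyrobp at 48 h (0.72 ± 0.23). The summed signal of the macrophage list given above did not overlap between 1000 uM and DMSO at either time. The sums of the hepatocyte and bile duct lists were also lower in 1000 uM without overlap at both times. Those of the endothelial, stellate and dendritic cell lists overlapped. Single probe sets without overlap, in either direction, made up 21.6% of all at 24 h and 26.7% at 48 h. Of 8 endothelial markers on the array, Eng and Pecam1 were higher at 48 h (0.69 ± 0.15 and 0.70 ± 0.26). Of 9 stellate cell and fibroblast markers, Acta2 was lower at 24 h and 48 h (-0.56 ± 0.13 and -0.49 ± 0.13). Of 5 bile duct markers, Epcam was lower at both times (-0.44 ± 0.05 and -0.43 ± 0.05). Among all probe sets, 17.4% were called lower and 11.5% higher at 24 h, and 22.7% and 15.2% at 48 h. The calls of single markers are to be read beside these shares. Of the 9 hepatocyte markers, 6 were lower at 24 h (Tat, Fgb, Cps1, Serpina1, Apoa1 and Ttr), beside 17.4% of all probe sets. At 48 h 4 were lower (Tat, Fgb, Serpina1 and Cps1), beside 22.7%, and none was higher at either time. Tat, a tyrosine aminotransferase, changed most, by -0.94 ± 0.08 and -1.31 ± 0.08. The part of any of these cells in the falls of Mx2, Rsad2, Stat2 and the pathway genes with 1000 uM was not tested.

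Of 8 endothelial markers on the array, Lyve1 also fell with time, by 0.67 ± 0.18 in DMSO (limma adjusted p = 0.014). Of 9 stellate cell and fibroblast markers, Col1a1 fell (-0.89 ± 0.28, limma adjusted p = 0.0499). Of 5 bile duct markers, Epcam rose by 0.39 ± 0.05. Among all probe sets, 3.07% were called lower and 3.88% higher with time in DMSO. Of the T, B and NK cell markers Cd3d and Cd79b, and of the dendritic cell markers Flt3, Clec9a and Itgax, were under the floor in all 6 groups. Of 9 hepatocyte markers, 3 fell and none rose with time in DMSO, where 3.07% of all probe sets were lower. They were Hnf4a with a change of -0.36 ± 0.05, Fgb of -0.33 ± 0.06 and Serpina1 of -0.17 ± 0.05. The summed signal of the 9 ranged from 534125 to 639482 in DMSO at 48 h, against 589854 to 657954 at 24 h, and all 9 lay above the filter. The 3'/5' ratio of actin, a sign of RNA integrity, averaged 2.33 in DMSO at 48 h, against 2.42 at 24 h. In 60 uM it averaged 2.33 at 48 h and 2.43 at 24 h. In 1000 uM it was higher than in DMSO at both times, 2.48 at 48 h and 2.56 at 24 h. The part of this difference in the falls with 1000 uM was not tested.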

How the data were processed

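Total RNA of 30 rat hepatocyte cultures was hybridised to Affymetrix arrays, per the labels' protocols. The deposited values are linear-scale intensity (signal) per probe set, made by the authors with MAS5 per the submitters' processing notes, which name no version. Each array had been scaled to 1 trimmed mean, so total RNA per cell cannot be read. The number of arrays limits the precision.

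For the tests log2 of the deposited signal was taken, with nothing added. Of 31042 probe sets that are not controls, the 18625 whose mean log2 lay above the 40th percentile (a signal of 255) were tested in R 4.3.3 with limma 3.58.1: 1 mean for each of 6 groups, an intensity trend, 11 comparisons and Benjamini-Hochberg adjustment within each. The fit was tested on simulated data first. Gene names come from the probe-gene table of the platform, in which 20826 probe sets name a single gene, 436 several and 9780 no gene. The background floor is the highest of 3 bacterial control sets whose targets are not in the samples.

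Named pathway genes were, per list, up to 3 genes with the largest change among those called with 1000 uM at either time or with time in DMSO, and marker genes called there. The 5 genes most like the members were named by correlation. Beyond this rule, the 8 pathway genes lower at all 3 exposures were chosen with their values in view. The members and lists were chosen with earlier results of these data known. Alternatives were filters, scalings (median, quantile, poly-A spike-ins), a constant of 50, the groups fitted, no trend, array weights, other probe sets and leaving out each array, and, added after seeing the data, the sets of serial numbers in the titles as a block.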

Additional observations from a re-analysis of the deposited data

Results flagged for a closer look

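Over 66 groups of 5 arrays tested, of which chance flags about 1 in 20, 3 held an array far from the other 4 of its group. Isg15 in 1000 uM at 48 h had a signal of 3278 in replicate 1, with the other 4 arrays between 1853 and 2135. Usp18 in 60 uM at 48 h had a signal of 2067 in replicate 4, below the other 4 at 2397 to 2532. Mx1 in DMSO at 48 h had a signal of 203.9 in replicate 5, below the other 4 at 302.7 to 343.8.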

How the results depend on the processing

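The labels give no replicate numbers, but the titles end in serial numbers that run through the 6 groups in order 5 times. Arrays of 1 such set had r of deviations from the group means of -0.051 to 0.11 (75 pairs, 1 over 0.1). Of 30 arrays 12 had their highest r with another group in their own set, and this count was not tested against a random match. The mean actin 3'/5' ratio fell from 2.56 (set 1) to 2.33 (set 5). With the set as a replicate block, chosen after seeing the data, no call of the 9 genes changed (4 with time in DMSO). Over all probe sets calls rose in each comparison, for the 60 uM interaction to 25, beside 16. Of 19 called changes of the 9 genes, 14 kept their call under every alternative run on the same probe set, 357 of 380 values in all, and none changed direction. Mx2 with time in DMSO, Mx2 with 60 uM at 48 h, Oas1a with time in 60 uM, Rsad2 with 1000 uM at 48 h and Stat2 with 1000 uM at 24 h lost it under 23. Among 80 changes that were not called, 3 of 1769 values were called and 78 had the other sign; 2 of the 3 were Stat2 with time in DMSO. On the dim Mx2 probe set the sign turned, uncalled, for 1000 uM against 60 uM at 24 h (0.052) and for time in DMSO (0.11) and 60 uM (0.18).

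The count of the 9 genes called became 1 with 1000 uM at 24 h after median centring and with spike-in scaling, 0 with 60 uM at 48 h with no filter, with spike-in scaling and without trend, and 1 with 1000 uM at 48 h with spike-in scaling. The counts with time moved too. With spike-in scaling and with only the groups compared, Mx2 lost its call in DMSO (limma adjusted p of 0.0706 and 0.0537). In the same settings Oas1a lost its call in 60 uM (0.119 and 0.0515). Stat2 gained a call in DMSO with quantile normalisation (0.0419). Leaving out 1 array gave 2 to 3 genes for 1000 uM at 24 h, 0 to 1 for 60 uM at 48 h, 1 to 2 for 1000 uM at 48 h, and with time 3 to 5 in DMSO, 4 to 5 in 60 uM and 4 in 1000 uM. Mx2 with time in 1000 uM against 60 uM stayed uncalled in every alternative run (0.63 to 0.95). Of the other pathway genes, spike-in scaling gave 1 and 19 calls with 60 uM and 1000 uM at 24 h, 6 with 60 uM at 48 h, and with time 8 in DMSO, 9 in 60 uM and 12 in 1000 uM. Median centring gave 3 with 60 uM at 24 h, and fitting only the groups compared gave 10 with time in DMSO. Leaving out 1 array gave 2 to 6 calls with 60 uM at 24 h and 10 to 19 with time in DMSO. Under spike-in scaling the median change over all probe sets was 0.18 and 0.11 with 1000 uM at 24 h and 48 h and 0.16 with time in DMSO. Under it Usp18, Isg15 and Irf7 fell with time in DMSO by 0.65, 0.64 and 0.37, all called. It raised the share of rises among all calls with time in DMSO to 93.8%, beside 55.8%, and with 1000 uM at 24 h to 83%, beside 39.8%. Over all probe sets it gave 759 calls with 60 uM at 24 h, beside 1222, and 677 at 48 h, beside 1686. For 1000 uM against 60 uM it gave 1981 at 24 h, beside 3332, and 2973 at 48 h, beside 4719. With time it gave 732 in 60 uM, beside 1622, and 2300 in 1000 uM, beside 3894, and for the interactions 8 with 60 uM, beside 16, and 480 with 1000 uM, beside 1544. Quantile normalisation gave 25 and no trend 10 for the first of these. Median centring put rises at 68.6% of calls with 60 uM at 24 h, beside 52.2%, at 53.5% and 51.2% with 1000 uM at 24 h and 48 h, beside 39.8% and 40.2%, at 54.1% for 1000 uM against 60 uM at 48 h, beside 39.6%, at 38.5% with time in 60 uM, beside 54.7%, and at 33.3% for the 60 uM interaction, beside 43.8%. Spike-in scaling put that share at 91.2% with 60 uM at 24 h, at 70.8% and 66.5% with 60 uM and 1000 uM at 48 h (51% and 40.2% before), at 72.7% and 69.1% for 1000 uM against 60 uM at 24 h and 48 h (41.9% and 39.6%), at 79.8% and 72.3% with time in 60 uM and 1000 uM (54.7% and 47.4%), and at 12.5% and 24.4% for the interactions (43.8% and 50.3%). Fitting only the groups compared called 758 probe sets with time in DMSO, beside 1293. What caused these shifts was not tested. Signal over background limits Mx1 and the second Mx2 set most.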
